A study of Mus musculus with 36 samples.

Results

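The 10 genes described here are markers of cardiac macrophages: Adgre1, Cd68, C1qa, C1qb, C1qc, Mrc1, Lyve1, Csf1r, Cd163 and Ccr2. They were taken by symbol from the 55291 gene symbols of the RNA-Seq tables, and all 10 were present and passed the filter on low counts, which kept 19231 genes. The samples were left ventricles and atria of CUG960 mice, a heart model of myotonic dystrophy type 1, in 6 cohorts with 3 libraries per cohort and chamber, 36 libraries in all. All mice were TREDT960I homozygous and MHCrtTA hemizygous, so that doxycycline (dox) switches on RNA with expanded CUG repeats in cardiomyocytes, where the α–myosin heavy chain promoter drives the transactivator. The +dox mice were on dox from postnatal day 1, the –dox mice never were, and the +/–dox mice were taken off dox at 9 weeks of age. The MBNL1, MBNL2 and MBNL1+MBNL2 mice stayed on dox and at 9 weeks were injected by tail vein with AAV9 vectors for heart-specific expression of 3XFLAG-MBNL1, 3XMYC-MBNL2 or both. All tissues were collected at 21 weeks of age, 12 weeks after the vector or the end of dox. The +dox cohort received no vector, so the vector itself and the MBNL protein cannot be told apart in these comparisons.

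Macrophages are the most common immune cells of the healthy heart. Most are long-lived resident cells that clear debris and sample the tissue, while others come from blood monocytes that enter through the chemokine receptor CCR2. The markers follow these roles. Adgre1 encodes the surface receptor F4/80 and Cd68 a lysosomal glycoprotein. C1qa, C1qb and C1qc encode the 3 chains of complement C1q, which macrophages make and release to tag dying cells and immune complexes. Csf1r is the receptor for the survival factors CSF1 and IL-34. Mrc1, the mannose receptor CD206, Cd163, the scavenger receptor for haemoglobin bound to haptoglobin, and Lyve1, a hyaluronan receptor, mark resident macrophages, and Lyve1 is also a marker of lymphatic endothelium. Because the tissue was sequenced in bulk, fewer macrophages and less RNA of a marker per macrophage cannot be told apart.

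Library totals ran from 55.03 to 97.09 M estimated counts (M for mega). The chamber labels were checked with 5 atrial genes, whose TPM (a level scaled by transcript length and by the library total) summed to 40261 to 61759 in atria and 92.2 to 1007 in ventricles. A few libraries stood apart. The first ventricular MBNL1 library listed 16885 genes above 0 against 20578 to 24041 in the others, and of the 18 ventricular libraries it was the lowest for 6 of the 10 markers in library-scaled counts. The third +dox library of the ventricle had the highest summed TPM of 4 general leukocyte genes among ventricles, 29.0 against 7.39 to 20.7 in the others. Libraries came in 2 sets by library name, and the third replicates of 5 cohorts together with all MBNL1+MBNL2 libraries form the second set. Comparisons of MBNL1+MBNL2 mice were therefore mostly made across the sets. Sex ran with the third replicates. Xist, which is transcribed from the inactive X chromosome of females, was at 13.57 to 41.24 TPM in the third libraries of those 5 cohorts and at 0.01 to 0.15 TPM in the other 26 libraries, all 6 of MBNL1+MBNL2 mice included, while the Y-linked Ddx3y was at 0.08 to 0.21 TPM and 24.49 to 34.81 TPM. Outside the MBNL1+MBNL2 cohort, sex and library set cannot be told apart. By the sample list of the study each mouse gave both a ventricular and an atrial library, so the chambers are not independent samples.

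The C1q genes were the most abundant of the markers. C1qa averaged 44.4 ± 10.1 TPM in ventricles and 100.3 ± 17.3 TPM in atria (SD, n = 18 libraries each). C1qb averaged 34.5 ± 8.26 and 77.3 ± 15.1 TPM, and C1qc 32.7 ± 7.76 and 72.2 ± 12.6 TPM. C1qa exceeded C1qb in 18 of 18 libraries of either chamber, while C1qb exceeded C1qc in 14 of 18 ventricular and 16 of 18 atrial libraries. Csf1r followed with 13.4 ± 2.32 TPM in ventricles and 36.2 ± 4.03 TPM in atria, below C1qc in every library.

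Below Csf1r the order differed between the chambers. In ventricles Cd68 (8.87 ± 2.33 TPM) and Mrc1 (8.86 ± 1.81 TPM) could not be ordered, since Cd68 was the higher of them in 9 of 18 libraries. Lyve1 came next with 6.36 ± 1.48 TPM, and Adgre1 (2.94 ± 0.690 TPM) and Cd163 (2.92 ± 0.709 TPM) again alternated, 9 of 18 libraries each way. In atria Lyve1 stood above Mrc1 in 18 of 18 libraries, with 23.3 ± 4.06 against 16.1 ± 1.91 TPM. There Cd163, with a median of 13.2 TPM, was above Adgre1, with a median of 7.42 TPM, also in 18 of 18. Ccr2 was the lowest marker in both chambers, at 0.783 ± 0.621 TPM in ventricles and 2.35 ± 1.26 TPM in atria. Its estimated counts were between 56.0 and 757 per library.

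**Figure D1:**
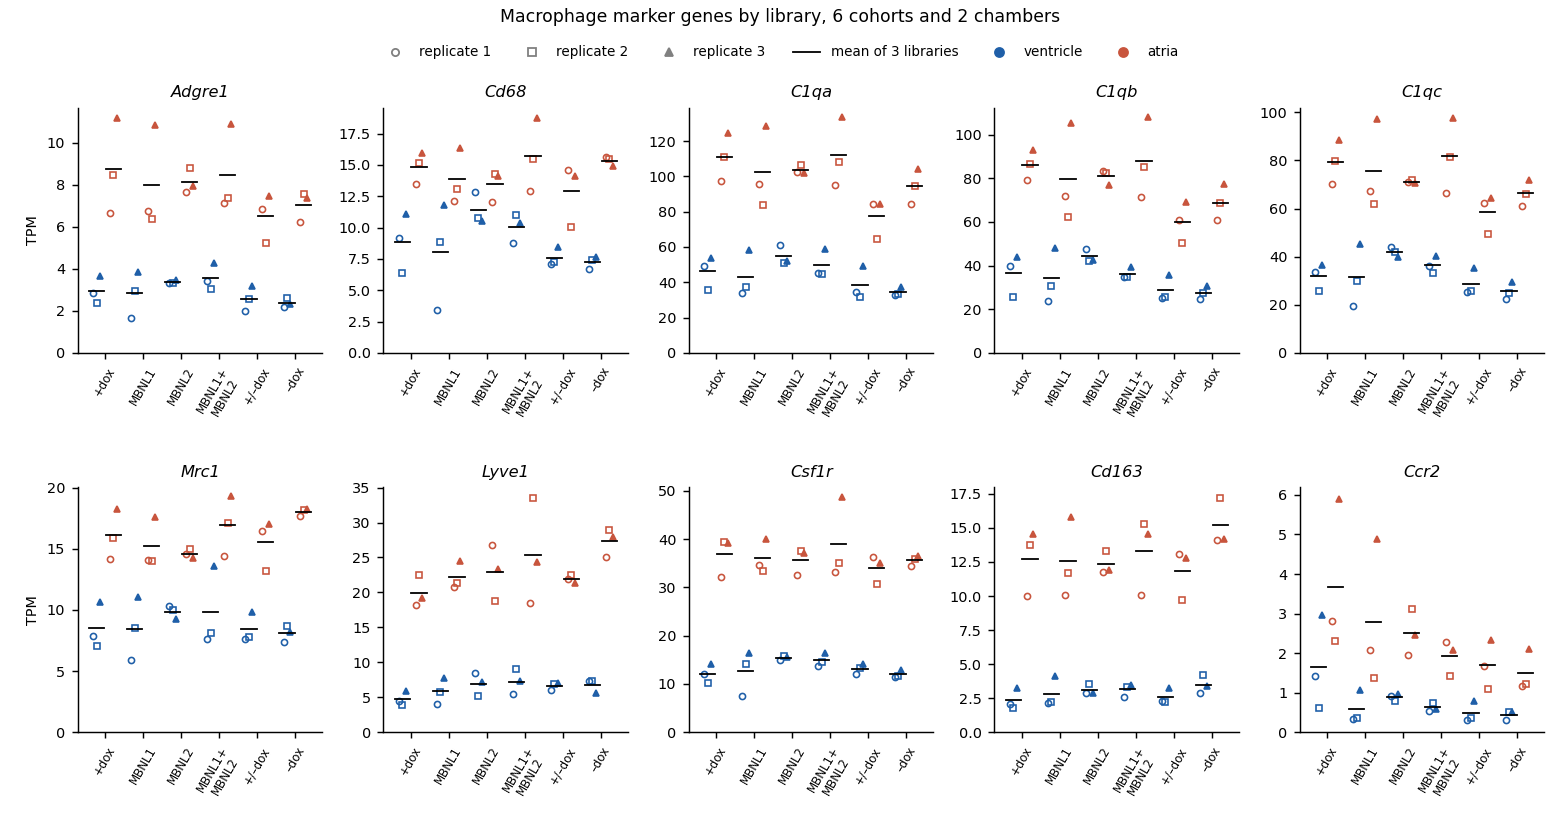
Level of each of the 10 markers in TPM (vertical axes, each from 0) in the 36 libraries, by cohort, with ventricles in blue and atria in red, 1 symbol per replicate and a line at the mean of 3. Atrial points lie above ventricular points in nearly every panel, Ccr2 is highest in +dox, and the first MBNL1 library of the ventricle is low for Cd68 (3.46 TPM) and Csf1r (7.45 TPM).

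The C1q genes lie side by side on the minus strand of chromosome 4, within 18.7 kb, in the GRCm38 assembly (GENCODE M21): C1qb (ENSMUSG00000036905.8) at chr4:136880129-136886187, C1qc (ENSMUSG00000036896.5) at chr4:136889804-136893065 and C1qa (ENSMUSG00000036887.5) at chr4:136895917-136898803. Cd68 (ENSMUSG00000018774.13) lies at chr11:69664213-69666153, Lyve1 (ENSMUSG00000030787.4) at chr7:110850607-110863239, both on the minus strand, and Adgre1 (ENSMUSG00000004730.15) at chr17:57358691-57483527, Mrc1 (ENSMUSG00000026712.3) at chr2:14229392-14332057, Cd163 (ENSMUSG00000008845.9) at chr6:124304656-124330527 and Ccr2 (ENSMUSG00000049103.14) at chr9:124101950-124113557, on the plus strand. Csf1r has the identifier ENSMUSG00000024621.16. No marker overlaps another gene except Mrc1, which holds the microRNA gene Mir511, and Csf1r, which holds Mir6983 and overlaps Hmgxb3 on the other strand.

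RefSeq promoter windows (GRCm38.p6, 250 bases before to 50 after the start of the gene) were at hand for 6 of the 10 markers: Cd68, C1qb, C1qc, Mrc1, Cd163 and Ccr2. They were searched on both strands for AGGAAGT, a core of the sites bound by PU.1 (encoded by Spi1), a transcription factor of the myeloid lineage, and by other ETS factors. The motif was present in 3 of these 6 promoters and in 9.35% of all 32851 promoters. The matches are shown as a description of these windows. Each line runs 5′ to 3′ on the strand of the gene, with the motif, which reads as its reverse complement, in capitals.
C1qb: caggacctgaaACTTCCTgagggcagcag
C1qc: ggacggcagacACTTCCTcattttggcac
Mrc1: cacttctccccACTTCCTgcgttttctcc
The C1qb window is chr4:136886236-136886264, with the motif 53 bases before the start. The C1qc window is chr4:136893092-136893120, 195 bases before it, and the Mrc1 window is chr2:14229192-14229220, 211 bases before it. The distances count from the RefSeq starts of these genes, which differ from the GENCODE positions given above. These matches are descriptions of the letters and not evidence of binding.

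Whether the chambers differ in these markers was asked over the mean of the 6 cohorts. In TPM, all 18 atrial libraries lay above all 18 ventricular libraries for 7 markers: Adgre1, C1qa, C1qb, C1qc, Lyve1, Csf1r and Cd163. In library-scaled counts (CPM), the scale of the test, this held only for Lyve1, Csf1r and Cd163. There Adgre1 overlapped (highest ventricle 11.4, lowest atrium 10.6 CPM), as did the C1q genes. The share of all genes tested that separate in this way is not given here. Cd163 was at 1.76 to 4.23 TPM in ventricles (median 2.90) and at 9.72 to 17.2 TPM in atria (median 13.2). Lyve1 was at 3.82 to 8.98 TPM in ventricles (median 6.46) and at 18.2 to 33.5 TPM in atria (median 22.4). Cd68 (3.46 to 12.8 TPM against 10.1 to 18.8 TPM), Mrc1 (5.87 to 13.6 TPM against 13.2 to 19.4 TPM) and Ccr2 (0.310 to 2.97 TPM against 1.08 to 5.91 TPM) overlapped between the chambers.

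All 10 markers were higher in atria with edgeR's quasi-likelihood test (Benjamini-Hochberg adjusted p below 0.05), and 8 of 10 were called, that is, also changed by at least 1.5-fold. Most genes differed by p alone: 13658 of the 19231 genes tested had an unadjusted p below 0.05, in either direction. Of all genes tested, 17.3% were called higher and 14.5% lower in atria. The median log2 fold change of the markers was 0.80, against 0.03 over all genes tested. Cd163 rose most, with a log2 fold change of 1.67 ± 0.09 (SE, adjusted p = 5.45e-16, edgeR), followed by Lyve1 with 1.39 ± 0.08 (adjusted p = 1.58e-14, edgeR) and Ccr2 with 1.16 ± 0.20 (adjusted p = 7.67e-06, edgeR). Csf1r rose by 0.94 and Adgre1 by 0.92 on the log2 scale. The 3 C1q genes rose to a like degree, with log2 fold changes of 0.68 for C1qa, 0.67 for C1qb and 0.65 for C1qc. Mrc1, with 0.36 ± 0.07 (adjusted p = 4.21e-05, edgeR), and Cd68, with 0.22 ± 0.09 (adjusted p = 0.0295, edgeR), passed the test of p but not the fold cutoff. With the 2 chambers of each cohort and replicate number fitted as a block, in place of independent libraries, 8 of 10 markers were again called.

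These fold changes depend on the scale. On TPM the atria-to-ventricle ratio had a median of 2.46 over the markers, against 1.74 on TMM-normalized CPM (counts relative to an effective library size, on which the test rests), and the median of all tested genes was itself 1.43 on TPM, a shift of 0.51 on the log2 scale. Against that shift Cd68, with a TPM ratio of 1.62, stood little above the median gene, and Cd163, with 4.46, well above it. All 10 ratios were above 1 on both scales. By cohort, the TPM ratio of Cd163 was between 3.99 and 5.42 and that of Lyve1 between 3.29 and 4.23, while that of Cd68 ran from 1.18 in MBNL2 mice to 2.12 in –dox mice.

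**Figure D2:**
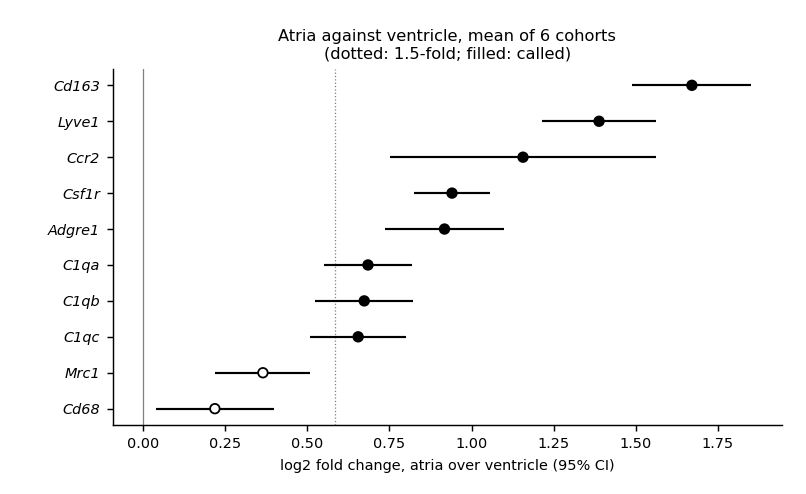
Log2 fold change of each marker in atria over ventricles, averaged over the 6 cohorts, with its 95% confidence interval. All 10 markers lie to the right of 0, from Cd68 (0.22) to Cd163 (1.67), and filled points are called.

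Other genes of the same pathways shared the direction in part. The counts below stand beside the 17.3% of all genes tested that were called higher and the 14.5% called lower in atria. Of 15 other macrophage genes, 6 were called higher in atria and 0 lower, among them the protease gene Ctss (0.99), the lysozyme gene Lyz2 (0.77), the pore-forming Mpeg1 (0.75), the integrin Itgam (0.74), the transcription factor gene Spi1 (0.60) and Aif1 (0.59, all log2 fold changes). Of 14 resident macrophage genes, 5 were higher and 0 lower, namely Igf1 (1.35), the phosphatidylserine receptor Timd4 (1.02), the scavenger receptor Stab1 (0.91), Pf4 (0.77) and Gas6 (0.66). Gas6 alone made up 46.4% of the summed TPM of that list in ventricles, and Igf1 and Gas6 are also made by fibroblasts. Of 7 monocyte genes 6 were tested and 3 were higher, Plac8 (2.06), Ly6c2 (1.26) and Hp (1.25).

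Of 11 complement genes, 8 were higher and 0 lower, beside 17.3% and 14.5% of all genes. Among them, C2 rose by 2.76, Cfp by 1.49, C4b by 1.13, C3 by more than C4b, C1ra, the protease partner of C1q, by 0.88, Serping1 by 0.79 and C5ar1 by 0.63. C1s1, the other protease partner, had a log2 fold change of 0.56, adjusted p = 1.98e-10 (edgeR), under the fold cutoff. The ligands went both ways: of 9 ligand genes, the hyaluronan synthases Has1 (1.93) and Has2 (0.76) were higher and Il34 (-1.04), Ccl7 (-0.62) and Ccl12 (-1.14) were lower in atria. Csf1, the other ligand of Csf1r, differed by 0.05 ± 0.05 (adjusted p = 0.322, edgeR), and Ccl2 had a log2 fold change of -0.45, under the fold cutoff.

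Markers of other cell types also differed between the chambers, where 17.3% of all genes were called higher and 14.5% lower in atria. Of 6 lymphatic endothelium genes, Ccl21a (-1.57), Reln (-1.34) and Mmrn1 (-1.28) were lower in atria and Pdpn (0.72) was higher, and their summed TPM was 54.3 to 103.1 in ventricles and 33.2 to 84.5 in atria. Of 6 fibroblast genes 2 were higher (Tcf21 and Col3a1) and 0 lower, of 6 T cell genes 4 were higher, and all 4 white fat genes were higher, with summed TPM of 0.00 to 5.33 in ventricles and 0.43 to 24.0 in atria. Of 4 general leukocyte genes 0 were called by edgeR, although 3 of them, Ptprc, Coro1a and Cd53, were higher in atria with an adjusted p below 0.05 under the fold cutoff, and the median log2 fold change was 0.48. The part of these other cell types in the chamber difference of the markers was not tested.

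The first cohort comparison asks how these genes differ with the CUG repeat RNA, by setting –dox and +/–dox mice beside +dox mice. The +dox mice alone of these had dox at the time of collection, so the drug itself and the repeat RNA cannot be told apart. In the ventricle Ccr2 was lower in –dox and +/–dox mice than in +dox mice. Of the resident markers, Cd163 and Lyve1, but not Mrc1, were called higher in –dox mice. The other 7 markers were not called. All comparisons with +dox mice share the same +dox libraries.

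Ccr2 was at 1.41, 0.60 and 2.97 TPM in the 3 ventricular +dox libraries. It was at 0.32, 0.51 and 0.51 TPM in –dox mice and at 0.31, 0.37 and 0.79 TPM in +/–dox mice. In TPM all –dox libraries lay below all +dox libraries, whereas the highest +/–dox library lay above the lowest +dox library. In CPM, the scale of the test, the –dox libraries also overlapped with +dox, the highest of them at 1.629 CPM and the lowest +dox library at 1.625 CPM. The log2 fold change was -1.76 ± 0.49 in –dox mice (SE, adjusted p = 0.0117, edgeR) and -1.73 ± 0.49 in +/–dox mice (adjusted p = 0.0123, edgeR). The third +dox library, at 2.97 TPM, was the highest of all 18 ventricles. Without it the log2 fold change was -1.09 in –dox mice (adjusted p = 0.128, edgeR) and -1.07 in +/–dox mice (adjusted p = 0.14, edgeR), and neither was called. DESeq2 without the third +dox libraries of both chambers and the ventricular MBNL1 library that stood apart gave -1.08 (adjusted p = 0.0479) and -1.06 (adjusted p = 0.0513). In the 26 libraries of male mice, which hold none of the third +dox libraries, both were called, at -1.26 (adjusted p = 0.0209, edgeR) and -1.49 (adjusted p = 0.00911, edgeR). The –dox call was also lost without the first –dox library (-1.58, adjusted p = 0.0653, edgeR), and the +/–dox call without the first (-1.48, adjusted p = 0.0736, edgeR) or the second +/–dox library (-1.64, adjusted p = 0.0541, edgeR). Within the second library set, with 1 library per cohort and no test, the log2 difference in CPM was -2.20 for –dox and -1.90 for +/–dox. The summed TPM of the 4 leukocyte genes was 16.8, 10.4 and 29.0 in +dox ventricles, 9.47 to 11.1 in –dox and 8.28, 10.3 and 16.1 in +/–dox ventricles, so that both groups overlapped with +dox. Of these genes Cd52, a leukocyte surface glycoprotein, was called lower in +/–dox ventricles (log2 fold change -1.46, adjusted p = 0.0494, edgeR), and without the 3 libraries it was not (-0.72, adjusted p = 0.322, edgeR). In –dox ventricles Cd52 had a log2 fold change of -1.45 (adjusted p = 0.0517, edgeR). Summed TPM of 6 T cell genes was 1.26, 1.06 and 3.94 in +dox and 1.09, 1.27 and 0.77 in –dox ventricles. The T cell gene Cd3g and the dendritic cell gene Flt3 were called lower in –dox ventricles by edgeR. Flt3 was at 0.14, 0.08 and 0.44 TPM in +dox and at 0.01, 0.08 and 0.03 TPM in –dox ventricles. Without the 3 libraries neither was called (Cd3g -0.65, adjusted p = 0.470, Flt3 -1.40, adjusted p = 0.163, edgeR). Nor was either in the libraries of male mice (-1.22, adjusted p = 0.257, and -1.24, adjusted p = 0.496, edgeR). The part of these other cell types in the Ccr2 result was not tested.

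Cd163 was at 2.06, 1.76 and 3.24 TPM in +dox ventricles and at 2.90, 4.23 and 3.37 TPM in –dox ventricles, so that the groups overlapped in TPM, though not in CPM. The log2 fold change was 0.64 ± 0.22 (SE, adjusted p = 0.0353, edgeR). Lyve1 was at 4.40, 3.82 and 5.91 TPM in +dox and at 7.36, 7.39 and 5.59 TPM in –dox ventricles, also with an overlap, since the third –dox library lay below the third +dox library. Its log2 fold change was 0.59 ± 0.21 (adjusted p = 0.0445, edgeR), a 1.50-fold change at the edge of the cutoff. Both calls depended on single libraries and on the fit. With the 18 ventricular libraries fitted alone, the adjusted p was 0.0654 for Cd163 and 0.0714 for Lyve1 (edgeR). The Cd163 call was lost without the first (adjusted p = 0.138, edgeR) or second (0.163) +dox library or the second –dox library (0.202). The Lyve1 call was lost without the first (adjusted p = 0.135, edgeR) or second (0.164) +dox library or the first (0.158) or second (0.147) –dox library. In the second library set alone, here 1 female mouse per cohort, the log2 differences were 0.09 for Cd163 and -0.05 for Lyve1, whereas in the libraries of male mice the log2 fold changes were 0.94 (adjusted p = 0.00567, edgeR) and 0.88 (adjusted p = 0.0339, edgeR). Whether the sexes differ in this was not tested. Lymphatic endothelium genes summed to 75.2, 66.5 and 78.7 TPM in +dox and 67.7, 54.7 and 71.2 TPM in –dox ventricles, and 0 of 6 were called by edgeR, with 2 of 6 at an unadjusted p below 0.05. Such a p was found for 6269 of the 19231 genes tested.

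Thus 3 of 10 markers were called in –dox ventricles, where 7.60% of all genes tested were called (4.13% lower), and 1 of 10, Ccr2, in +/–dox ventricles, where 6.60% were (3.52% lower). Adgre1, Cd68 and the C1q genes had log2 fold changes between -0.37 (C1qa, adjusted p = 0.108, edgeR) and -0.24 in –dox ventricles, and Mrc1 and Csf1r between -0.03 and 0.01. Lyve1 in +/–dox ventricles was at 6.07, 6.85 and 7.06 TPM, above all +dox libraries, with a log2 fold change of 0.52 ± 0.21 (adjusted p = 0.0750, edgeR), which was not called. Without the ventricular MBNL1 library that stood apart and the third +dox libraries of both chambers it was called, at 0.66 (adjusted p = 0.0380, edgeR). Between +/–dox and –dox ventricles 0 of 10 markers were called by edgeR or DESeq2, with 0.0312% of all genes called, and 1 had an unadjusted p below 0.05, Cd163 (log2 fold change -0.49, adjusted p = 0.551, edgeR). An unadjusted p below 0.05 was found there for 1586 of the 19231 genes tested.

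**Figure D3:**
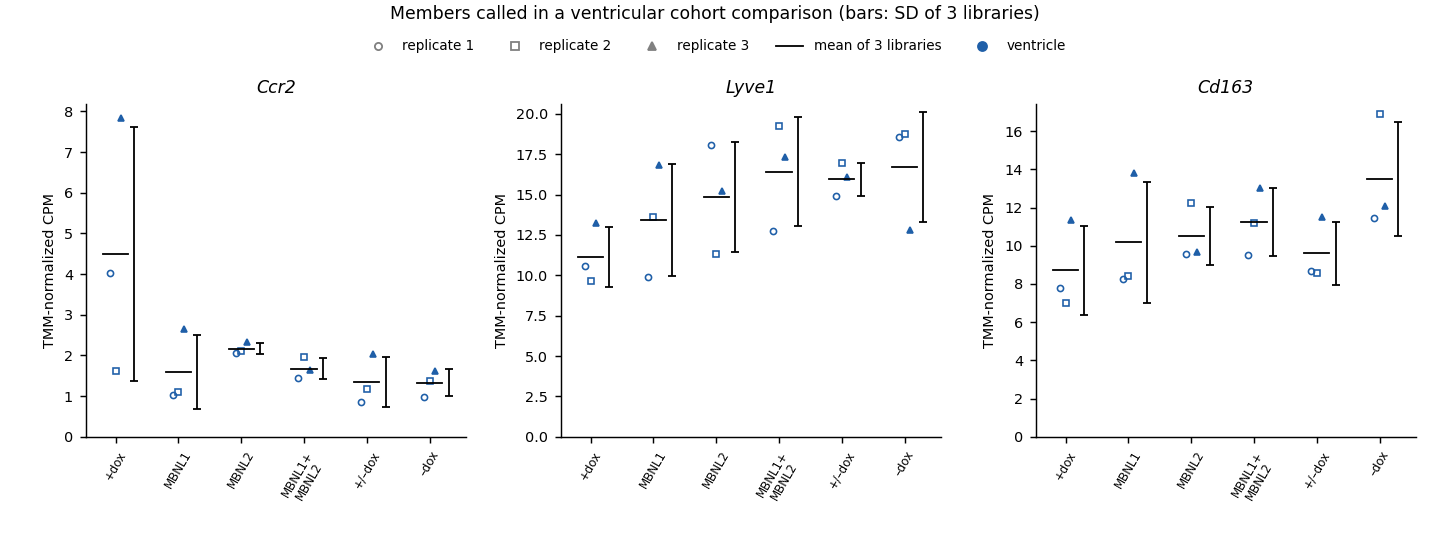
Ccr2, Lyve1 and Cd163 in the 18 ventricular libraries in TMM-normalized CPM (vertical axes from 0), with the mean and SD of 3 libraries per cohort. The +dox libraries of Ccr2 spread from 1.63 to 7.83 CPM and carry the highest mean, whereas +dox has the lowest mean for Lyve1 and Cd163.

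In atria no marker was called in either comparison, although Ccr2 and the C1q genes leaned the same way. Ccr2 was at 2.81, 2.30 and 5.91 TPM in +dox atria, at 1.18, 1.22 and 2.11 TPM in –dox atria and at 1.68, 1.08 and 2.32 TPM in +/–dox atria. The –dox values lay below all +dox values, and the highest +/–dox value just above the lowest of them. The log2 fold change was -1.20 ± 0.47 in –dox mice (SE, adjusted p = 0.0841, edgeR) and -1.01 ± 0.47 in +/–dox mice (adjusted p = 0.174, edgeR). With the library set as a term of the fit both were called, with log2 fold changes of -1.15 (adjusted p = 0.00952, edgeR) and -0.96 (adjusted p = 0.0366, edgeR). The third +dox library was again the highest of them. Without it the log2 fold changes were -0.76 (adjusted p = 0.341, edgeR) and -0.57 (adjusted p = 0.524, edgeR), and in the libraries of male mice -1.04 (adjusted p = 0.0545, edgeR) and -0.82 (adjusted p = 0.155, edgeR). All 4 general leukocyte genes were also lower in –dox and +/–dox atria, without overlap with +dox in TPM. Mean TPM in +dox, –dox and +/–dox atria was 4.44, 2.92 and 2.57 for Ptprc and 10.5, 7.91 and 7.41 for Coro1a. It was 10.8, 3.87 and 3.47 for Cd52 and 7.41, 5.82 and 5.64 for Cd53. The part of leukocytes in general in the lower Ccr2 and C1q values was not tested.

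The C1q genes of +/–dox atria did not overlap with +dox atria in TPM. How many of all genes separate in this way is not given here. The C1q genes varied together over the libraries (r = 0.93 to 0.95), so they are not separate observations. C1qa was at 84.1, 64.8 and 84.3 TPM in +/–dox and at 97.3, 110.8 and 124.6 TPM in +dox atria. C1qb was at 60.8, 50.5 and 68.9 TPM against 79.4, 86.4 and 93.1 TPM, and C1qc at 62.4, 49.3 and 64.2 TPM against 70.3, 79.6 and 88.6 TPM. The log2 fold changes were -0.44 for C1qa (adjusted p = 0.0673, edgeR), -0.46 for C1qb (adjusted p = 0.0947, edgeR) and -0.37 for C1qc (adjusted p = 0.171, edgeR). The second +/–dox atrial library was the lowest of the 18 atria for 6 of the 10 markers in CPM.

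Lyve1 was at 25.1, 29.0 and 27.9 TPM in –dox atria, above the +dox values of 18.2, 22.4 and 19.2 TPM, with a log2 fold change of 0.49 ± 0.20 (adjusted p = 0.101, edgeR). Of all genes tested, 5.23% were called in –dox atria (2.40% lower) and 3.99% in +/–dox atria (1.98% lower). Of the 10 markers 2 had an unadjusted p below 0.05 in –dox atria and 4 in +/–dox atria, and DESeq2 called 0 in either. Such an unadjusted p was found for 5568 and 4842 of the 19231 genes tested. Between +/–dox and –dox atria 0 markers were called by edgeR or DESeq2, 0 had an unadjusted p below 0.05, and 0.0104% of all genes were called.

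The second question is whether the markers moved with MBNL1, MBNL2 or both on top of the repeat RNA. With 1 mean per group, edgeR called no marker in these comparisons in either chamber, but other fits called Ccr2. Ventricular Ccr2 came nearest. It was at 0.34, 0.37 and 1.07 TPM in MBNL1 mice, at 0.91, 0.78 and 0.96 TPM in MBNL2 mice and at 0.54, 0.75 and 0.59 TPM in MBNL1+MBNL2 mice. In each cohort at least 1 library lay above the second +dox library, at 0.60 TPM. The log2 fold changes against +dox were -1.49 ± 0.48 for MBNL1 (SE, adjusted p = 0.0528, edgeR), -1.04 ± 0.48 for MBNL2 (adjusted p = 0.189, edgeR) and -1.41 ± 0.49 for MBNL1+MBNL2 (adjusted p = 0.0710, edgeR). DESeq2 called Ccr2 with MBNL1 (-1.49, adjusted p = 0.0207) and with MBNL1+MBNL2 (-1.40, adjusted p = 0.0350). So did edgeR with the library set as a term, at -1.46 (adjusted p = 0.00434) and -1.83 (adjusted p = 0.000635), and with the replicate block, at -1.46 (adjusted p = 0.00947) and -1.26 (adjusted p = 0.0248). With sex as a term the values were -1.46 (adjusted p = 0.00434, edgeR) and -0.9996 (adjusted p = 0.0453, edgeR), also called. For MBNL1 the set and sex terms are the same fit, since they differ only in the MBNL1+MBNL2 libraries. For MBNL1+MBNL2 they differ only in whether its libraries are counted with the third replicates of the other cohorts. Without the third +dox libraries of both chambers and the ventricular MBNL1 library that stood apart, edgeR gave -0.58 (adjusted p = 0.576) for MBNL1 and -0.76 (adjusted p = 0.358) for MBNL1+MBNL2, and DESeq2 -0.58 (adjusted p = 0.483) and -0.73 (adjusted p = 0.280). In the libraries of male mice edgeR called MBNL1 (-1.41, adjusted p = 0.0297) and not MBNL1+MBNL2 (-0.75, adjusted p = 0.174).

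Ventricular Lyve1 was at 4.04, 5.69 and 7.82 TPM with MBNL1, at 8.48, 5.11 and 7.13 TPM with MBNL2 and at 5.46, 8.98 and 7.26 TPM with both. Each group overlapped with +dox, and the largest log2 fold change was 0.56 ± 0.21, with both (adjusted p = 0.0961, edgeR). C1qc, at 44.2, 42.0 and 39.9 TPM with MBNL2, lay above the +dox values of 33.5, 25.7 and 36.3 TPM, as did Csf1r at 14.9, 15.8 and 15.6 TPM against 12.0, 10.2 and 14.2 TPM, though in CPM Csf1r overlapped, and neither was called. The share of all genes called in the ventricle was 2.66% with MBNL1, 1.52% with MBNL2 and 2.65% with both, and the number of markers with an unadjusted p below 0.05 was 1, 1 and 2. Among all 19231 genes tested, 4733, 4294 and 4254 had such a p. In atria the shares were 0.130%, 0.00520% and 0.260%, and 0 markers had an unadjusted p below 0.05 in any of the 3 comparisons, nor did DESeq2 call one. Atrial Ccr2 was at 2.07, 1.37 and 4.89 TPM with MBNL1, at 1.95, 3.11 and 2.47 TPM with MBNL2 and at 2.29, 1.43 and 2.08 TPM with both. The last group lay below all +dox atria in TPM but not in CPM (highest 4.31 against lowest 4.23 CPM), with a log2 fold change of -0.88 ± 0.46 (adjusted p = 0.553, edgeR). It was called with the library set as a term (-1.35, adjusted p = 0.0261, edgeR), and not with sex as a term (-0.52, adjusted p = 0.525, edgeR) or without the third atrial +dox library (-0.44, adjusted p = 0.862, edgeR). Here too the set and sex terms differ only in whether the MBNL1+MBNL2 libraries are counted with the third replicates.

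Set beside +/–dox mice, the MBNL cohorts had no called marker by edgeR or DESeq2 over all libraries. In the ventricle 0.868% of all genes were called with MBNL1, 1.57% with MBNL2 and 0.530% with both, and in atria 1.21%, 3.24% and 1.71%. The C1q genes had the smallest p-values. With MBNL2 their ventricular log2 fold changes were 0.36 for C1qa, 0.47 for C1qb and 0.40 for C1qc, each with an unadjusted p below 0.05 and an adjusted p of 0.136 or more (edgeR). An unadjusted p below 0.05 was found there for 3528 of the 19231 genes tested. C1qb was at 47.7, 42.0 and 42.8 TPM in MBNL2 ventricles and at 25.2, 25.4 and 35.6 TPM in +/–dox ventricles, without overlap, and was called in the libraries of male mice (0.64, adjusted p = 0.0358, edgeR). In atria C1qa and C1qb with MBNL2, and all 3 C1q genes with both, had an unadjusted p below 0.05, the smallest adjusted p being 0.102 (edgeR). Among all 19231 genes tested, 4631 with MBNL2 and 3845 with both had an unadjusted p below 0.05. With MBNL1 in either chamber, and with both in the ventricle, 0 markers reached that p.

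**Figure D4:**
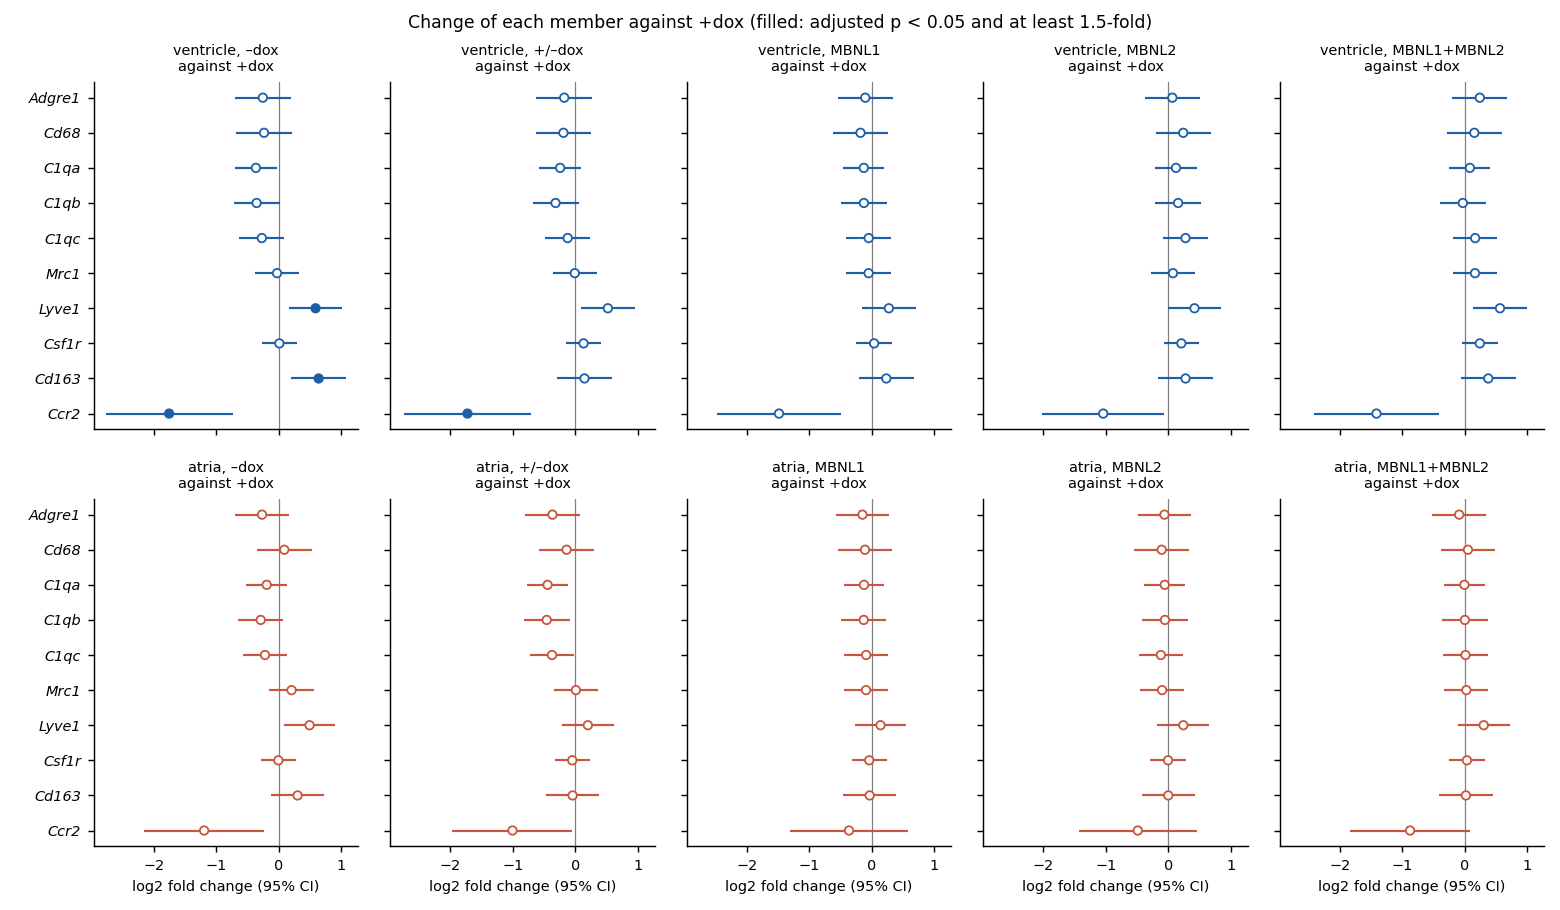
Log2 fold change of each marker against +dox, with 95% confidence intervals, for 5 cohorts (columns) in ventricles (upper row) and atria (lower row). Only ventricular Ccr2 (–dox and +/–dox), Lyve1 and Cd163 (–dox) are filled, that is, called, and the Ccr2 intervals are the widest of the 10.

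Whether the change against +dox differed between the chambers was tested as an interaction. The edgeR test called 0 of 10 markers in each of the 5 interactions, and 0 had an unadjusted p below 0.05. DESeq2 likewise called none, nor did edgeR with the 2 chambers of each cohort and replicate number as a block. Of all genes tested, 0.764% were called for –dox, 0.489% for +/–dox, 0.0312% for MBNL1, 0.0364% for MBNL2 and 0.0728% for MBNL1+MBNL2. For Ccr2 the atrial change was less negative than the ventricular change by 0.56 in –dox mice (95% interval -0.82 to 1.94) and by 0.72 in +/–dox mice (-0.66 to 2.10), so neither a difference nor its absence was shown.

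Of the other genes of these pathways, those called in –dox or +/–dox mice were mostly lower than in +dox mice. In –dox ventricles 4 of 15 other macrophage genes fell and 0 rose, where 4.13% of all genes tested were called lower. Aif1, which encodes the actin-binding protein IBA1, was at 4.62, 3.04 and 6.63 TPM in +dox and at 1.91, 2.15 and 2.12 TPM in –dox ventricles, with a log2 fold change of -1.13 ± 0.21 (SE, adjusted p = 0.000214, edgeR). The other genes were Cx3cr1 (-0.99), the fractalkine receptor, Ms4a7 (-0.90) and Ctss (-0.89). Without the third +dox libraries and the ventricular MBNL1 library that stood apart, Aif1 (-0.85, adjusted p = 0.00301, edgeR) and Ms4a7 (-0.90, adjusted p = 0.0272, edgeR) were still called in –dox ventricles, and Cx3cr1 (-0.62, adjusted p = 0.281, edgeR) and Ctss (-0.61, adjusted p = 0.0771, edgeR) were not. In the libraries of male mice Aif1 was called (-0.84, adjusted p = 0.0124, edgeR), and Ms4a7 (-0.77, adjusted p = 0.129, edgeR), Cx3cr1 (-0.71, adjusted p = 0.224, edgeR) and Ctss (-0.58, adjusted p = 0.0483, edgeR, under the fold cutoff) were not. In +/–dox ventricles, with 3.52% of all genes lower, Aif1 (-0.88) and Ctss (-0.85) fell, and Aif1 was also lower in MBNL2 ventricles (-0.72), where it was at 3.39, 3.34 and 2.60 TPM. In atria Cx3cr1 fell in –dox mice (-1.18), with 2.40% of all genes lower, and Aif1 in +/–dox mice (-0.62), with 1.98% lower. Without the same 3 libraries the calls of Ctss in +/–dox ventricles (-0.57, adjusted p = 0.0950, edgeR) and of Aif1 in MBNL2 ventricles (-0.44, adjusted p = 0.220, edgeR) and +/–dox atria (-0.49, adjusted p = 0.0941, edgeR) were lost.

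Of the 14 resident macrophage genes 0 were called in –dox or +/–dox ventricles by edgeR, with 4 and 5 at an unadjusted p below 0.05. Among all 19231 genes tested, 6269 and 6367 had such a p. Under the fold cutoff Gas6 had log2 fold changes of -0.40 (adjusted p = 0.000283, edgeR) and -0.35 (adjusted p = 0.00129, edgeR), and Stab1 had 0.39 in +/–dox ventricles (adjusted p = 0.0191, edgeR). F13a1, coagulation factor XIII of macrophages, was the sole member of that list to rise in –dox atria, with a log2 fold change of 0.70. It was at 13.1, 17.8 and 13.8 TPM in +dox and at 22.1, 23.0 and 26.8 TPM in –dox atria, without overlap, and was not called in the libraries of male mice (0.57, adjusted p = 0.161, edgeR). Of the 6 monocyte genes tested, 0 were called in any comparison with +dox by edgeR, at most 2 had an unadjusted p below 0.05 in any of them, and their median log2 fold change in –dox ventricles was -0.13. Between 831 and 6367 of the 19231 genes tested had such a p in these comparisons.

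Among the ligands, monocyte-attracting chemokine genes were called in both chambers, but not the same genes in each. Of all genes tested, 4.13% were called lower in –dox and 3.52% in +/–dox ventricles, and 2.40% and 1.98% in atria. Ccl8 was at 28.2, 10.2 and 17.6 TPM in +dox ventricles, at 0.62, 2.83 and 4.16 TPM in –dox ventricles and at 3.29, 1.54 and 3.39 TPM in +/–dox ventricles. Neither group overlapped with +dox, and the log2 fold changes were -2.81 ± 0.95 (SE, adjusted p = 0.0363, edgeR) and -2.68 ± 0.94 (adjusted p = 0.0416, edgeR). Ccl7 fell in –dox atria (-1.60), at 0.264, 0.180 and 0.321 CPM against 1.02, 0.677 and 0.625 CPM in +dox. Ccl12 fell in +/–dox atria (-2.01), at 0.137, 0.0802 and 0.231 CPM against 0.775, 0.311 and 0.750 CPM in +dox. At these low levels the size of both folds is uncertain. These 4 calls were also made without the 3 libraries named above, whereas in the libraries of male mice Ccl8 was not called, with log2 fold changes of -3.34 in –dox (adjusted p = 0.0687, edgeR) and -2.86 in +/–dox ventricles (adjusted p = 0.108, edgeR). Ccl2 itself was not called, with ventricular values of 2.24, 1.68 and 2.28 TPM in +dox and 1.74, 1.48 and 1.21 TPM in –dox mice.

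The ligands of Csf1r were not called in any comparison with +dox. Csf1 was at 13.5, 10.8 and 20.8 TPM in +dox and 12.9, 11.5 and 13.3 TPM in –dox ventricles, and Il34 at 2.53, 1.88 and 1.94 TPM and 3.02, 2.97 and 3.22 TPM. Has2, which makes the ligand of Lyve1, was higher in –dox (1.08) and +/–dox atria (1.01) and in MBNL2 ventricles (1.14), where it was at 0.56, 0.29 and 0.29 TPM against 0.12, 0.18 and 0.16 TPM in +dox. Has1 was also called there, at 0.26, 0.05 and 0.11 TPM against 0.00, 0.03 and 0.00 TPM, a level too low to read a fold from. In the complement list C2 (-1.27) and C4b (-1.15) fell in –dox ventricles, while the C1q partners C1ra (-0.31) and C1s1 (-0.32) were not called. Without the 3 libraries the Has2 and Has1 calls and that of C2 were lost (adjusted p from 0.0738 for Has2 to 0.126 for Has1, edgeR), with log2 fold changes of 1.12 for Has2 in MBNL2 ventricles, 0.88 in –dox and 0.81 in +/–dox atria, and -1.08 for C2. In the libraries of male mice neither C2 (-0.98, adjusted p = 0.112, edgeR) nor C4b (-1.23, adjusted p = 0.0902, edgeR) was called. Has2 was called there in –dox atria (1.15, adjusted p = 0.0449, edgeR). It was not in +/–dox atria (0.78, adjusted p = 0.214, edgeR) or MBNL2 ventricles (1.28, adjusted p = 0.0732, edgeR). Nor was Has1 in MBNL2 ventricles (2.98, adjusted p = 0.216, edgeR).

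The markers were then compared with each other over the 36 libraries, as Pearson's r of log2 CPM after the mean of each chamber was subtracted. The correlations describe libraries that share depth, cohort and library set. The C1q genes were the most alike, with r = 0.95 for C1qa and C1qb, 0.94 for C1qb and C1qc and 0.93 for C1qa and C1qc. Adgre1 and C1qc followed with 0.87, and Cd68 and Csf1r with 0.84. Over all 45 pairs the median r was 0.59. Lyve1 had r = 0.04 to 0.11 with the C1q genes (0.31 to 0.38 with the mean of each of the 12 groups subtracted), and r = -0.33 with Ccr2, the lowest of all pairs. Its closest marker was Cd163, with 0.57, and that of Cd163 was Mrc1, with 0.65. The closest marker of Ccr2 was C1qb, with 0.72.

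**Figure D5:**
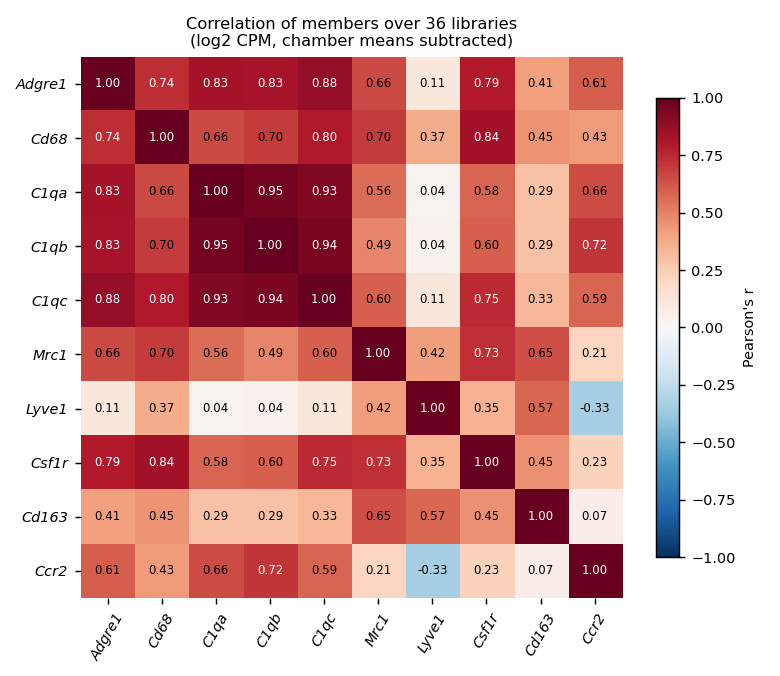
Pearson's r between each pair of markers over 36 libraries, on log2 CPM with the chamber means subtracted, on a colour scale from -1 to 1. The C1q genes, Adgre1, Cd68 and Csf1r have values of 0.58 to 0.95 with each other. Mrc1 (0.73 with Csf1r) and Ccr2 (0.72 with C1qb) reach into that range, and the row of Lyve1 holds the lowest value, -0.33 with Ccr2.

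The 10 other genes most like the mean of the standardised markers were Laptm5 (r = 0.90), Lyz2 (0.89), Pirb (0.88), Ncf1 (0.88), Lcp1 (0.87), Unc93b1 (0.86), Gm36161 (0.84), Clec4a1 (0.82), Mpeg1 (0.81) and Myo1f (0.81). Laptm5, Lyz2 and Mpeg1 were on the list of other macrophage genes. Of the markers themselves, C1qc (0.91) and Adgre1 (0.91) lay closest to this mean and Lyve1 (0.35) farthest from it. Each marker is itself part of this mean, which raises its r, so these values do not compare with those of the other genes.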

How the data were processed

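RNA from 250 ng per sample was made into stranded mRNA libraries and sequenced as paired 150 bp reads. Per the paper's methods and the processing notes, the authors aligned reads to mm10 with STAR 2.7.10b and quantified genes with RSEM 1.3.1. The deposited expected counts are RSEM estimates per gene symbol, not normalized. The deposited TPM values are RSEM estimates scaled by transcript length and library total. RSEM's strand setting is not given in the sources used here.

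Expected counts were rounded and fitted with edgeR 4.0.16 (limma 3.58.1, R 4.3.3), quasi-likelihood test, robust, TMM normalization, filterByExpr defaults, 1 mean for each of 12 groups, all 36 libraries. Calls needed a p below 0.05 after Benjamini-Hochberg adjustment over the 19231 genes of a comparison and a fold change of at least 1.5. There were 24 comparisons. The counts script was tested on simulated data. Levels are TPM as deposited or TMM-normalized CPM. Tables and plots were made with Python 3.11.15. For correlations log2 CPM had a prior count of 2. Alternatives were DESeq2 1.42.0, DESeq2's size factors, no filter, no fold cutoff, a replicate block, library set as a term, 1 chamber alone and each library left out. Added after seeing the data were the first library set alone, fits without 3 libraries (edgeR and DESeq2), sex as a term, and the 26 libraries of male mice.

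The markers, gene lists and tests were chosen with earlier results of these data known. Genes named are the 10 markers, genes of the macrophage, monocyte, ligand and complement lists that were called or are partners of a marker, and the 10 genes with the highest r. Other cell type genes are named beside a result they move with. The value of 1 called complement gene is not reported here. Replicates are separate samples per the labels. The sample list of the study names 18 mice, each with a ventricular and an atrial library, and their sexes. The labels carry no animal numbers, so equal replicate numbers were taken as 1 mouse in the block for the chambers alone. Correlations of deviations between chambers of the same number were 0.04 to 0.26. The main fit treats the 36 libraries as independent. No pair of replicates was identical. Gene positions came from GENCODE M21 on GRCm38, the assembly of mm10, and promoters from RefSeq.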

Additional observations from a re-analysis of the deposited data

How the results depend on the processing

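Of the 24 comparisons, 15 had exactly the same number of called markers under every alternative, and of 12 called pairs of marker and comparison 0 changed direction. Between the chambers (8 called) the count was 10 without the fold cutoff. In –dox ventricles (3 called) the count was 1 without the filter on low counts or with the ventricular libraries alone, and 1 to 3 when each library was left out. In +/–dox ventricles (1 called) it was 2 in the first library set alone and 0 to 1 with a library left out. With MBNL1 in the ventricle (0 called) it was 1 with DESeq2, the library set or sex as a term (the same fit here), the replicate block, the first library set alone or male mice alone, and 0 to 1 with a library left out. With MBNL1+MBNL2 (0 called) it was 1 with DESeq2, the library set term, the sex term or the replicate block, 2 with DESeq2 without the 3 libraries named in the report (Lyve1 and Cd163), and 0 to 1 with a library left out. With MBNL2 against +/–dox it was 1 in the first set or male mice alone (C1qb, 0.64 in both). In atria (0 called) it was 1 for –dox, +/–dox and MBNL1+MBNL2 with the library set term, 1 for –dox and +/–dox with the sex term, and 1 for –dox with the replicate block. Outside the MBNL1+MBNL2 cohort the set term and the sex term are the same fit and do not count as separate alternatives. Ccr2 was the marker gained in these fits, except for Lyve1 (+/–dox, first set), C1qb and the pair with DESeq2. The cause was not tested.

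Under the replicate block Ccr2 had log2 fold changes of -1.46 (MBNL1, adjusted p = 0.00947, edgeR) and -1.26 (MBNL1+MBNL2, adjusted p = 0.0248, edgeR) in ventricles and -1.15 (–dox, adjusted p = 0.0189, edgeR) in atria. Samples with the same number did not deviate together by the threshold set for pairing: in 0 of 10 pairs of a cohort and +dox, 0 of 6 of an MBNL cohort and +/–dox and 0 of 2 of +/–dox and –dox were all correlations above 0.1, against 3 of 6 pairs of atria and ventricle. Between cohorts the number names no shared mouse, but number 3 holds the second library set and the female mice outside the MBNL1+MBNL2 cohort, and its correlation was above 0.1 in 7 of the 10 pairs of a cohort and +dox. Between chambers, which come from the same mice, it changed no count of called markers.

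With CPM in place of TPM the median atria-to-ventricle ratio was 1.74 instead of 2.46, and that of MBNL2 over +dox ventricles 1.13 instead of 1.24. With the mean of each of the 12 groups subtracted, the median r over pairs of markers was 0.70 instead of 0.59, r of Lyve1 was 0.06 with Ccr2 and 0.31 to 0.38 with the C1q genes, and 7 of the 10 most similar genes were shared. With 3 libraries per group the SE of the log2 fold change in –dox ventricles was between 0.14 for Csf1r and 0.49 for Ccr2, the marker of the lowest level.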
